A study of Homo sapiens with 16 samples.

Results

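The transcripts of 5 cytokines, IL32, IL16, IL15, MIF and TNF, were followed in cells depleted of PNPase or of SUV3. The cells were OCI-AML2, an established human line of acute myeloid leukaemia. They are 5 of the 594 genes of the panel, and their symbols are current in RefSeq's gene table. They were chosen as cytokines expressed by leukaemia cells, with IL32 lower and IL16 higher on later days. That choice used the change over days in these same samples, so levels by day are given below as descriptions without a test. The comparison of the knockdowns with each other was not part of the choice and was tested. Of the members 4 lay above the negative control probes, and IL15 did not.

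PNPase, encoded by PNPT1, is an exoribonuclease, and SUV3, encoded by SUPV3L1, a helicase that works with it in mitochondrial RNA decay. Short hairpin RNA constructs were brought into all cells by transduction, aimed at PNPase or at SUV3, and each knockdown had 2 biological replicates, numbered 545 and 1717 for PNPase and 1595 and 1727 for SUV3. Each replicate was sampled on days 3, 4, 5 and 6, giving 16 samples in 8 groups of 2. Cells without a knockdown and the 2 targeted transcripts were not analysed here, so that all values compare knockdowns or days.

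Cytokines are secreted proteins that carry signals between cells. TNF is made by activated myeloid cells as a membrane protein that is cut free, and it acts through TNF receptors on NF-kappaB and caspase-8. IL32 lacks close relatives among the interleukins and is known for inducing TNF and chemokines in monocytes. IL16 is cut from a large precursor and binds CD4. IL15 is presented on the surface of myeloid cells and signals through the IL2RB and IL2RG chains, JAK1, JAK3 and STAT5. MIF, kept ready-made in the cytoplasm, binds CD74, with CD44 as its signalling partner, and the chemokine receptors CXCR2 and CXCR4.

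The bases in front of the transcription start are shown for IL32, MIF and TNF, the members with the highest values, to set beside their different courses. They are taken from RefSeq (GRCh38.p14, forward strand, 250 bases each), and capitals mark 4 motifs searched on both strands: the kappaB consensus, which NF-kappaB binds; TGACGTCA, the cyclic AMP response element; GGGCGG, the GC box; and TATAAA, the TATA box.
IL32, chr16:3065153-3065402: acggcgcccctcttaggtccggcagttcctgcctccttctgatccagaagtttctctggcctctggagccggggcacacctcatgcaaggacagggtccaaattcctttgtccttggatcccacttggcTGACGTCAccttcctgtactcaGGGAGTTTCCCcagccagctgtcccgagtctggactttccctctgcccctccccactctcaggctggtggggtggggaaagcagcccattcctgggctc
MIF, chr22:23894133-23894382: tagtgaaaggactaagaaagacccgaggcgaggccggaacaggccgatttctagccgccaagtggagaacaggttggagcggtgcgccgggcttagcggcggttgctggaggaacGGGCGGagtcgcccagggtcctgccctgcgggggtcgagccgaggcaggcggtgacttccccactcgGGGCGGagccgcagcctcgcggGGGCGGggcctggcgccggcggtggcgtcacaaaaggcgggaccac
TNF, chr6:31575315-31575564: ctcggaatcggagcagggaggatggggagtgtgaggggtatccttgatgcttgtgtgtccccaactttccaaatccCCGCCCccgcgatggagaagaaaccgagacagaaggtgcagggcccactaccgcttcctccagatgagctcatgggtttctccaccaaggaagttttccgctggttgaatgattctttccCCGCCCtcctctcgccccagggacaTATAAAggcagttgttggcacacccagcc
The IL32 window held a kappaB match, GGGAGTTTCC, on the forward strand and an overlapping match on the other strand, from 99 to 89 bases before the start. It also held TGACGTCA, which reads the same on both strands, from 121 to 114 bases before the start. MIF held 3 GC boxes and none of the other motifs. TNF held 2 GC boxes on the reverse strand and a TATA box from 29 to 24 bases before the start. Among 35114 RefSeq windows of the same length, 9.96% held a kappaB match, 1.65% TGACGTCA, 42.6% GGGCGG and 10.7% TATAAA. A match describes the letters only. IL32 has a further listed start, whose window, not shown, held a GC box on the reverse strand and none of the other motifs. IL16 has 2 listed starts, whose windows are not shown.

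The measurements come from the nCounter Human Immunology v2 panel, in which each transcript binds a reporter probe that is counted directly. The deposited whole numbers are labelled as corrected for unwanted variation, by a method that no source used here gives. Whether that correction altered differences between days or knockdowns was not tested. A sample summed to between 311396 and 493370 over the 594 genes. Probes without a target in human RNA, 8 in number, read 6.80 on average (SD 3.05), and their mean plus 2 SD, 12.9, is used as the upper level of the background. Each sample was divided by the geometric mean of its 15 housekeeping genes, and log2(value + 1) of the result is called the scaled log2 value. The housekeeping factor itself was higher on day 6 than on day 3 in every replicate, by 0.37 to 1.02 on the log2 scale, and this enters every scaled course below. Of 14 measured myeloid markers 11 lay above the negative controls, whereas 19 of 21 T and NK cell markers did not, with CD3D at 1 to 8 and CD3E at 1 to 13. Summed over the T and NK cell markers, the PNPase samples lay at 407 to 813 and the SUV3 samples at 317 to 514, and NCAM1 alone lay at 205 to 647. B cell markers were above in 3 of 10. Differences between fewer cells of a kind and less RNA per cell cannot be told apart in such bulk samples.

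IL32 had the largest deposited value of all 594 genes in 8 of the 16 samples and stayed within the first 4 in the others. It took 6.83% to 19.8% of the total over all genes. In PNPase replicate 545 the scaled log2 value was 15.81, 15.80, 15.16 and 15.20 on days 3 to 6, and in replicate 1717 it was 16.42, 15.61, 15.25 and 15.20. In SUV3 replicate 1595 it was 16.08, 15.62, 14.84 and 14.77, and in replicate 1727 it was 15.69, 15.26, 15.20 and 14.76. Day 3 was the highest day in all 4 replicates, and day 6 the lowest in all but PNPase 545, where day 5 lay slightly below it. On day 6 IL32 stood at 0.655 and 0.430 of its day 3 level in PNPase replicates 545 and 1717, and at 0.403 and 0.524 in SUV3 replicates 1595 and 1727. The ratio of IL32 to each of the 15 housekeeping genes was lower on day 6 than on day 3 in each replicate. These ratios share the same IL32 values, which the choice used, and are not separate checks. The same count was 13, 15, 7 and 14 of 15 for MIF in PNPase 545 and 1717 and SUV3 1595 and 1727. For IL15, at background, it was 15, 15, 14 and 15 in the same order. The fitted slope was -0.32 ± 0.07 (SE) per day after PNPase and -0.38 ± 0.07 (SE) after SUV3 knockdown.

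**Figure D1:**
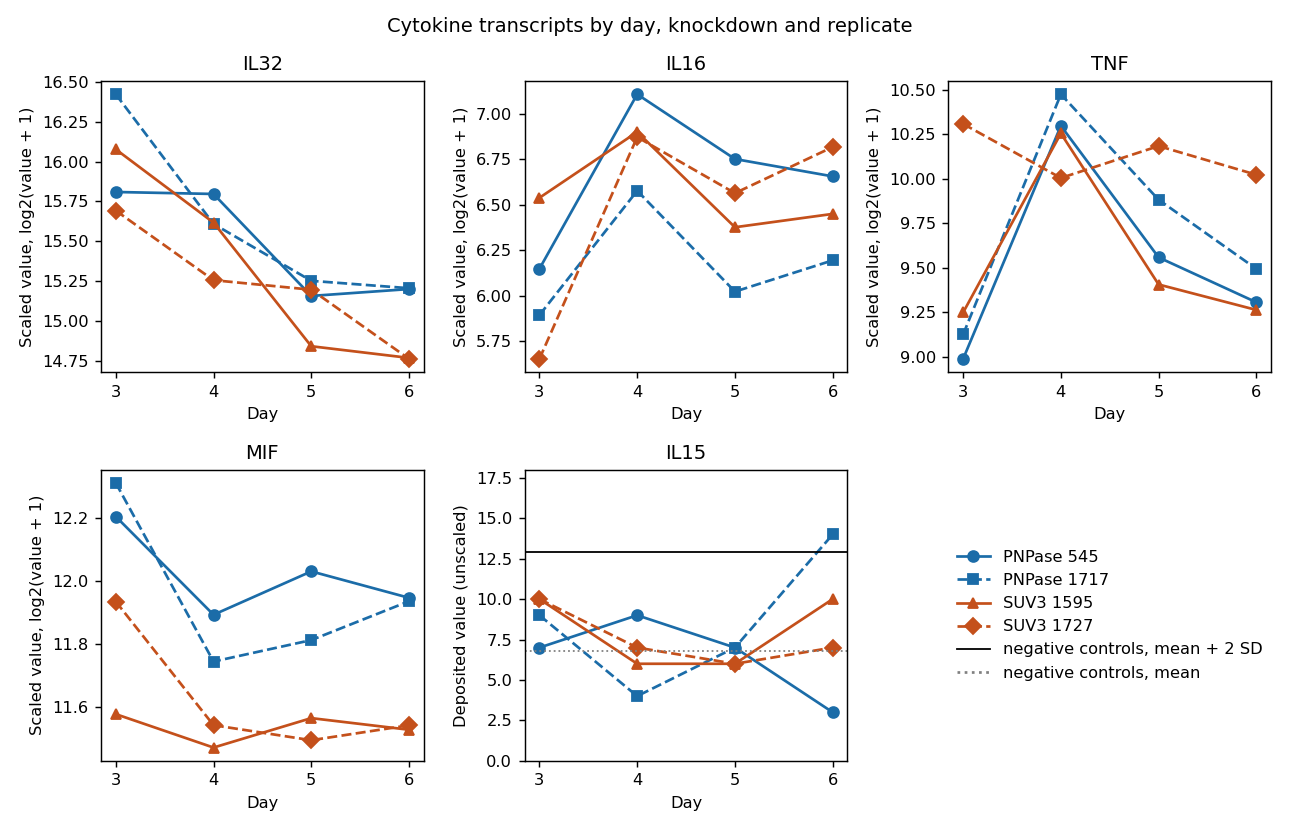
Scaled log2 values of IL32, IL16, TNF and MIF and deposited values of IL15 on days 3 to 6, with 1 line for each of the 4 replicates. IL32 was highest on day 3 in every replicate, IL16 was highest on day 4 in every replicate, TNF peaked on day 4 in all but SUV3 1727, and IL15 lay under the upper level of the negative controls in 15 of 16 samples.

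The deposited values of IL32, before scaling, are given beside the scaled ones. In PNPase replicate 545 they were 53394, 56104, 45481 and 50105 on days 3 to 6, and in replicate 1717 they were 61686, 59762, 49976 and 53862. In SUV3 replicate 1595 they were 48879, 40291, 28946 and 27744, and in replicate 1727 they were 44055, 34334, 36872 and 29790. Day 6 thus came to 0.938 and 0.873 of day 3 in the PNPase replicates, while the housekeeping factor was higher on day 6 by 0.52 and 1.02 on the log2 scale. In the SUV3 replicates day 6 came to 0.568 and 0.676 of day 3, with the factor higher by 0.49 and 0.37. In the PNPase replicates the housekeeping factor thus made up more of the scaled difference than IL32 itself, and without scaling the slope was -0.07 per day, against -0.23 after SUV3 knockdown. IL32 exceeded the most concentrated of the spiked positive controls in all 16 samples, by 1.07 to 1.97 times, so whether the assay was linear at its level was not tested.

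**Figure D2:**
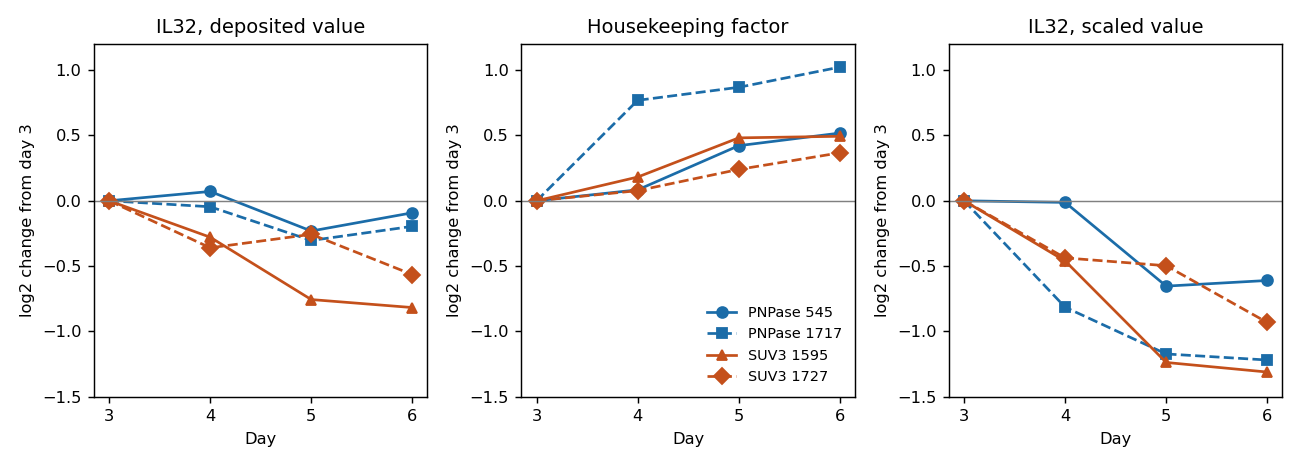
Change from day 3, on the log2 scale, of the deposited IL32 value, of the housekeeping factor and of the scaled IL32 value, with 1 line for each replicate. On day 6 the deposited value had moved by -0.09 and -0.20 after PNPase and by -0.82 and -0.56 after SUV3 knockdown, and the scaled value by -0.61, -1.22, -1.31 and -0.93 in the same order.

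IL16 was a weak transcript, with deposited values from 41 to 135, all above the negative controls. In PNPase replicate 545 it was at 65, 135, 133 and 133 on days 3 to 6, and in replicate 1717 at 41, 113, 82 and 103. In SUV3 replicate 1595 it was at 65, 95, 81 and 86, and in replicate 1727 at 41, 102, 92 and 120. The scaled value was highest on day 4 in all 4 replicates, at 1.95 and 1.61 times day 3 in PNPase replicates 545 and 1717 and at 1.29 and 2.33 times day 3 in SUV3 replicates 1595 and 1727. Against single housekeeping genes IL16 was higher on day 4 than on day 3 for 14 of 15 in SUV3 1595 and for 15 of 15 in the others. From day 4 to day 6 the scaled log2 value then moved by -0.45, -0.38, -0.45 and -0.055 in the same order. The scaled course was therefore a maximum on day 4, then lower values in 3 replicates and a nearly level course in SUV3 1727. On day 6 the scaled value of SUV3 1595 was back below its day 3 level, at 94.0% of it. The deposited values went from 135 to 133, 113 to 103 and 95 to 86 between days 4 and 6 in these 3 replicates. In SUV3 1727 they rose from 102 to 120, their maximum. The housekeeping factor rose between these days in every replicate and enters the scaled fall. The slope of the scaled values was 0.08 ± 0.12 (SE) per day after PNPase and 0.12 ± 0.12 (SE) after SUV3 knockdown. Without day 3 both scaled slopes were negative, at -0.21 and -0.13. Without scaling, over all days, they were 0.33 and 0.27.

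TNF also peaked on day 4, with deposited values of 391 to 1699 over the 16 samples. In PNPase replicate 545 the scaled log2 value was 8.99, 10.30, 9.56 and 9.30 on days 3 to 6, in replicate 1717 it was 9.12, 10.47, 9.88 and 9.49, and in SUV3 replicate 1595 it was 9.25, 10.25, 9.40 and 9.26. In these 3 replicates day 4 was at 2.48, 2.55 and 2.01 times day 3, and day 6 had returned to within 0.37 log2 units of day 3. SUV3 replicate 1727 did not share the peak: its values were 10.31, 10.00, 10.18 and 10.02, the highest of all replicates on days 3, 5 and 6 and the lowest on day 4. Against single housekeeping genes TNF was higher on day 4 than on day 3 for 15 of 15 in the other replicates and for 3 of 15 in SUV3 1727. Slopes on day describe such a course poorly, at 0.04 ± 0.15 (SE) after PNPase and -0.07 ± 0.15 (SE) per day after SUV3 knockdown. The replicate slopes were positive after PNPase and negative after SUV3 knockdown, and replicate slopes split by sign between the knockdowns, in either direction, in 7.41% of all genes.

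The day 3 sample of SUV3 replicate 1727, singled out after seeing the data, also had high values of genes that TNF and NF-kappaB are known to induce. Of the 16 such genes above the negative controls, 10 had their highest scaled value of the series in this sample. The share of all genes with their highest value in this sample was not computed. Whether the count is particular to these genes was therefore not tested. The filter used the mean over all samples, this one included. CCL20, counted here, passed through it, at 66 in this sample and 3 to 24 in the others, with a mean of 14.0. The median of the sample over the 16 genes was 7.51 scaled log2 units, against 6.37 to 6.55 in the other day 3 samples. IL8, a neutrophil chemokine, had a deposited value of 10431 there and 1355 to 2474 in the other day 3 samples, and NFKBIA, the inhibitor of NF-kappaB, 1682 against 519 to 903. On days 4, 5 and 6 SUV3 1727 again had the highest median over these genes, at 6.06, 6.42 and 6.27. The other replicates lay at 5.39 to 5.80, 5.26 to 5.53 and 5.16 to 5.47 on these days. What part the state of SUV3 1727, on day 3 or later, had in its level of TNF was not tested.

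MIF was strongly expressed, with deposited values of 3568 to 5587 after PNPase knockdown (median 4499) and 2159 to 3257 (median 2885.5) after SUV3 knockdown, 8 samples each. In PNPase replicate 545 the scaled log2 value was 12.21, 11.89, 12.03 and 11.95 on days 3 to 6, and in replicate 1717 it was 12.31, 11.74, 11.81 and 11.94. In SUV3 replicate 1595 it was 11.58, 11.47, 11.56 and 11.53, and in replicate 1727 it was 11.93, 11.54, 11.49 and 11.54. On each day both PNPase samples lay above both SUV3 samples. Day 3 was the highest day of the scaled values in all 4 replicates, and after it MIF stayed within 0.20 log2 units in each. The deposited values were highest on day 6 in PNPase 545 (5256) and 1717 (5587). They were highest on day 5 in SUV3 1595 (2988) and on day 3 in SUV3 1727 (3257). The slopes of -0.08 ± 0.06 (SE) per day after PNPase and -0.06 ± 0.06 (SE) after SUV3 knockdown have no settled direction, because they were 0.17 and 0.09 without scaling. MIF had the smallest scaled spread of the 4 expressed members, 1.79-fold between its lowest and highest sample, against 2.78-fold for IL16, 2.80-fold for TNF and 3.17-fold for IL32. That order depends on the scaling. In deposited values IL32 had the smallest spread, 2.22-fold, against 2.59-fold for MIF, 3.29-fold for IL16 and 4.35-fold for TNF.

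IL15 had deposited values of 3 to 14 with a median of 7, under that background level in 15 of 16 samples. The exception was PNPase replicate 1717 on day 6, at 14, where 1 of the 8 negative control probes read at least as high. IL15 was therefore not detectable at this depth, the description of the 5 as expressed cytokines does not hold for it here, and no fold or course is given.

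The first test asked whether the cytokines differed between the knockdowns over all days. Averaged over days, MIF stood at 11.99 ± 0.05 (SD, n = 2) scaled log2 units in the PNPase and 11.58 ± 0.07 (SD, n = 2) in the SUV3 replicates, a ratio of 1.32. IL32 was at 15.56 ± 0.09 (SD, n = 2) against 15.28 ± 0.07 (SD, n = 2). IL16 was at 6.42 ± 0.35 (SD, n = 2) against 6.52 ± 0.06 (SD, n = 2). TNF was at 9.64 ± 0.15 (SD, n = 2) against 9.84 ± 0.41 (SD, n = 2). For MIF and IL32 both PNPase replicates lay above both SUV3 replicates, and for IL15, at background, both lay below. Such a separation of the replicates was seen in 38.4% of all genes, with PNPase above, as for MIF and IL32, in 8.42% and with PNPase below, as for IL15, in 30%. For IL16 and TNF they overlapped. Taken singly, the 8 PNPase and 8 SUV3 samples did not overlap in 3.37% of genes, none of them a member.

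In limma, with 2 replicates against 2, none of the 5 members passed, and neither did any other gene (0% of 594 called, 38 with an unadjusted p under 0.05). MIF differed by 0.40 ± 0.21 (SE), PNPase minus SUV3, with a 95% interval of -0.14 to 0.95 and an adjusted p of 0.722. IL32 differed by 0.28 ± 0.22 (SE) with an interval of -0.27 to 0.83 and an adjusted p of 0.776. For IL16 the difference was -0.10, with an interval of -0.77 to 0.56 (adjusted p = 0.933), and for TNF -0.20, with an interval of -0.92 to 0.53 (adjusted p = 0.889). These intervals leave room for differences in either direction, and a 2 against 2 exact permutation test could not go below p = 0.333. Without scaling, MIF differed by 0.71 and IL32 by 0.59, with adjusted p of 0.722 each, and the deposited values of MIF did not overlap between the 8 PNPase and the 8 SUV3 samples, as in 1.68% of genes. The spiked positive controls, which hold no cellular RNA, were higher after PNPase than after SUV3 knockdown too, at 0.02 to 0.29 against -0.26 to 0.01 log2 units around their mean. Scaled by them, MIF differed by 0.42 and IL32 by 0.30.

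Taken day by day, MIF differed by 0.50 ± 0.35 (SE) on day 3, 0.31 ± 0.27 (SE) on day 4, 0.39 ± 0.29 (SE) on day 5 and 0.41 ± 0.23 (SE) on day 6. Both PNPase samples lay above both SUV3 samples on every day in 1.68% of genes, MIF among them. The difference in IL32 ran from 0.19 to 0.44 over the days, and that in IL16 from -0.21 to -0.04. TNF differed by -0.72 ± 0.46 (SE) on day 3 and by 0.26 ± 0.29 (SE) on day 4. Limma called 0% of genes on each day, with 26, 42, 28 and 39 genes at an unadjusted p under 0.05 on days 3 to 6, and the adjusted p of the expressed members lay between 0.700 and 0.988.

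**Figure D3:**
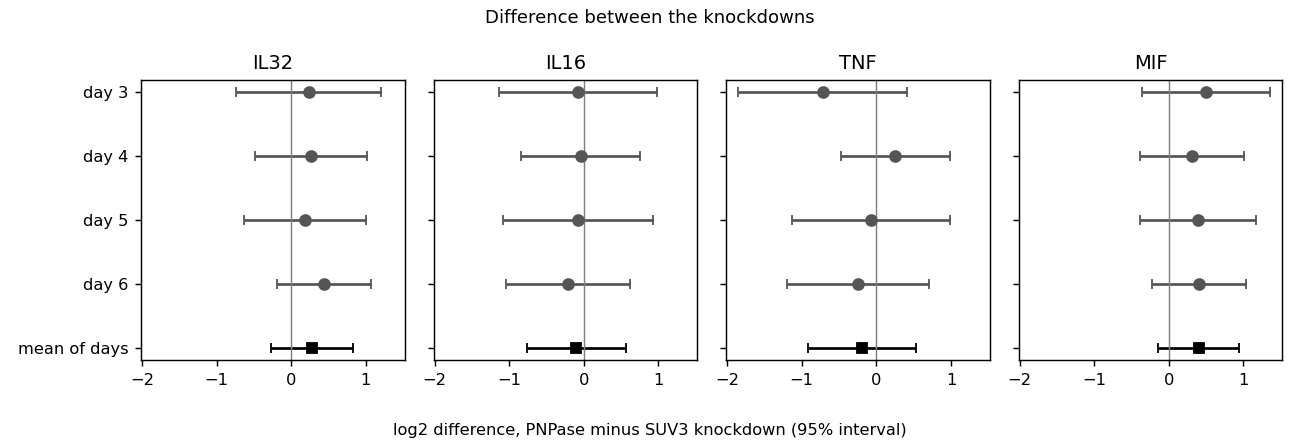
Difference between the knockdowns in IL32, IL16, TNF and MIF, PNPase minus SUV3, on the scaled log2 scale with 95% intervals, for each day (2 samples against 2) and for the mean of the days. MIF lay between 0.31 and 0.50 on every day, and every interval included 0.

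Whether the change per day differed between the knockdowns was tested in the fit of both slopes. That test measures the scatter over days, not the spread between replicate slopes. None of the members passed (0% of genes called, 39 with an unadjusted p under 0.05). The difference of slopes, PNPase minus SUV3, was 0.05 ± 0.10 (SE) for IL32 with a 95% interval of -0.17 to 0.28. For IL16 it was -0.04, with an interval of -0.42 to 0.33, and for TNF 0.11, with an interval of -0.35 to 0.57. For MIF it was -0.02, with an interval of -0.20 to 0.16. The adjusted p of these 4 were 0.994 or 0.995.

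Among the receptors and partners of MIF, all 4 listed genes were measured and above the negative controls, and none passed between the knockdowns or over days. CD44 had a median deposited value of 2082.5 (1713 to 3686) after PNPase and 1334 (697 to 1559) after SUV3 knockdown and differed by 0.74 ± 0.41 (SE). CXCR4 had a median of 1611.5 (1076 to 2027) against 2019 (1407 to 2730) and differed by -0.70 ± 0.27 (SE), with an adjusted p of 0.722 like CD44. CXCR2 differed by -0.59 ± 0.36 (SE) and CD74, also the MHC class II invariant chain, by 0.10 ± 0.23 (SE). The receptors thus stood on both sides, with 2 positive and 2 negative differences, whose median was -0.25 against -0.15 over all 594 genes.

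For IL15, IL2RG, the chain shared with several interleukin receptors, was expressed, with medians of 186.5 and 237 after PNPase and SUV3 knockdown. IL2RB, the other signalling chain, ranged from 5 to 17 and was not above the negative controls on average. JAK1, JAK3, STAT5A and STAT5B were above them. In the comparison of the knockdowns 3 of the 6 measured genes had positive and 3 negative differences, with a median of -0.09, and none passed. IL2RG differed by -0.73 ± 0.43 (SE), STAT5B by -0.45 ± 0.24 (SE) and STAT5A by 0.29 ± 0.29 (SE), and JAK1 and JAK3 by -0.19 and 0.05.

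For IL16, the receptor CD4 differed by -0.21 ± 0.36 (SE) and the tetraspanin CD9 by -0.25 ± 0.46 (SE). Neither passed between the knockdowns or over days.

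For TNF, 9 of 12 listed receptor and signalling genes were measured, all above the negative controls, and none passed in either comparison. TNFRSF1B, the receptor of larger size found on immune cells, differed by -0.00031 with an interval of -0.73 to 0.72. The adaptors TRAF2 and FADD differed by 0.16 ± 0.24 (SE) and 0.34 ± 0.22 (SE), and CASP8, the initiator caspase that FADD recruits, by -0.40 ± 0.28 (SE). Of the kinase complex that frees NF-kappaB, IKBKB differed by -0.52 ± 0.22 (SE), CHUK by -0.29 ± 0.21 (SE) and IKBKG by 0.15 ± 0.22 (SE). The NF-kappaB subunits NFKB1 and RELA differed by -0.64 ± 0.26 (SE) and -0.06 ± 0.22 (SE). The list's median was -0.06, with 3 genes higher and 6 lower.

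**Figure D4:**
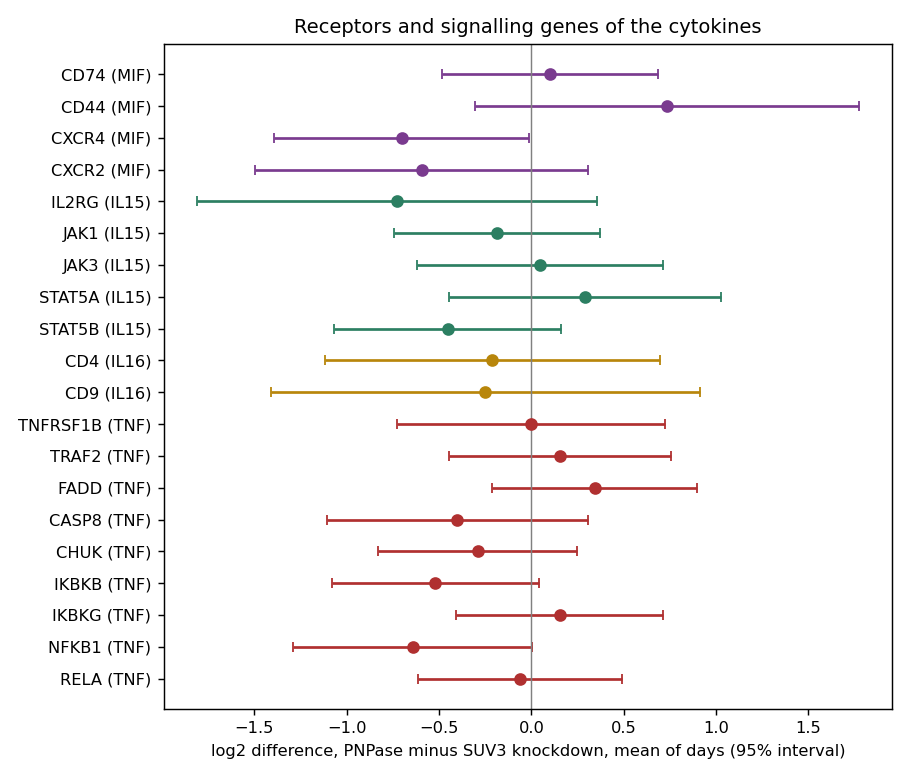
Differences in the receptor and signalling genes of MIF, IL15, IL16 and TNF named in the text and above the negative controls, PNPase minus SUV3 averaged over days, on the scaled log2 scale with 95% intervals. The estimates ran from -0.73 for IL2RG to 0.74 for CD44, and none of these genes passed the test across genes.

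The measured genes that TNF and NF-kappaB induce had a lower median slope than all genes after each knockdown, and 1 passed. The shares of negative slopes, and of negative differences between the knockdowns, over all genes are not given. The counts of negative values below therefore cannot be read as particular to these genes. Of 38 other cytokine genes, 31 of the 38 not above the negative controls, 35 were negative after PNPase and 22 after SUV3 knockdown. Of 10 B cell markers 10 and 8 were negative, and of 9 TNF receptor and signalling genes 4 after each knockdown. Of the 17 response genes measured, 15 had a negative slope after PNPase knockdown, with a median of -0.35 per day against -0.10 over all genes, and 0 passed, where 0.168% of all genes were called. After SUV3 knockdown 16 of 17 were negative, with a median of -0.34 against -0.05, and 1 passed, where 1.68% of all genes were called. That gene was BCL3, a nuclear regulator of NF-kappaB, at -0.51 ± 0.11 (SE) per day with an adjusted p of 0.0329 in limma. Its deposited values on days 3 to 6 were 45, 17, 15 and 15 in SUV3 1595 and 33, 27, 28 and 18 in SUV3 1727. Several of the later ones lay near the background level of 12.9, which limits the slope of BCL3. Its slope was negative under all 15 alternatives (-0.68 to -0.33), but the call was lost in 11 of them (adjusted p from 0.020 to 0.724 over the 15), among them those without any 1 replicate or day and without scaling. IL8 had slopes of -0.71 ± 0.16 (SE) and -0.46 ± 0.16 (SE), NFKBIA of -0.34 ± 0.12 (SE) and -0.50 ± 0.12 (SE), and TNFAIP3, which ends TNF signalling, of 0.00 ± 0.08 (SE) and -0.10 ± 0.08 (SE) after PNPase and SUV3 knockdown. None of these 3 passed. Between the knockdowns 16 of the 17 differences were negative, at a median of -0.44 against -0.15 over all genes, and 0 passed. Without SUV3 replicate 1727, chosen after seeing the data, 11 of the 17 were negative, at a median of -0.14 against -0.11 over all genes. The scaled log2 value of IL8 was 10.91, 10.66, 10.00 and 9.79 on days 3 to 6 in SUV3 1595, close to 11.38, 10.71, 10.10 and 9.59 in PNPase 545, and 13.61, 11.32, 12.00 and 11.69 in SUV3 1727.

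Of 38 other cytokine genes measured, 31 were not above the negative controls. The 7 above them included TNFSF13B, a survival factor of B cells, and TGFB1, an inhibitor of immune cell growth. TNFSF13B differed by -0.98 ± 0.31 (SE) between the knockdowns (adjusted p = 0.666) and TGFB1 by 0.65 ± 0.27 (SE; adjusted p = 0.722), and 0 of 38 passed. Over days, IL17A passed after PNPase and LIF after SUV3 knockdown, both negative, but their mean deposited values of 9.31 and 7.31 lie under the background level, and their slopes are left out.

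Finally, the genes whose scaled values ran most like each member over the 16 samples were named from the 354 above the negative controls. The samples share their housekeeping factor and their replicate, so these correlations describe the samples only. IL32 ran most like BCL3 (r = 0.91, with low deposited values of 15 to 45), NFIL3, a basic leucine zipper factor (r = 0.88), and TRAF4 (r = 0.80). IL16 ran most like the receptors IL6R (r = 0.84), TLR2 (r = 0.79) and CCR1 (r = 0.79). TNF ran most like ICOSLG, a T cell costimulator (r = 0.88), ATG16L1, an autophagy factor (r = 0.76), and IL1B, an inflammasome product (r = 0.71). MIF ran most like CD99, a surface adhesion protein (r = 0.85), the housekeeping gene OAZ1 (r = 0.81) and NOTCH1 (r = 0.75). For IL15, whose values are at background, PRDM1, TBK1 and PML had the highest r, at 0.68 to 0.70. Among the members themselves r was 0.53 for IL32 with MIF, -0.49 for IL16 with MIF, 0.31 for IL16 with TNF, -0.27 for IL32 with IL16 and -0.08 for IL32 with TNF. MIF with TNF had an r of -0.41. Centred within replicates, r was -0.80 for IL16 with MIF, -0.56 for MIF with TNF, 0.54 for IL32 with MIF, 0.51 for IL16 with TNF, -0.23 for IL32 with IL16 and 0.0011 for IL32 with TNF.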

How the data were processed

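The authors deposited whole-number values for each gene and sample, treated here as a score, because the file name says that unwanted variation was removed and no source used here gives the method or scale. The deposited score tables are 2, and all 594 genes had identical values in both. Per the labels' protocols, total RNA was measured on an nCounter immunology panel. The negative controls limit the precision for weak genes.

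Each sample was divided by the centred geometric mean of 15 housekeeping genes, and log2(value + 1) was tested with limma 3.58.1 under R 4.3.3, p-values being adjusted by Benjamini-Hochberg over all 594 genes and a threshold of 0.05. This scale understates changes of weak genes. The knockdowns were compared on the mean of the 4 days of each replicate, and also on each day alone. Slopes on day had an intercept for each replicate as a block. The series' design text states that each replicate was sampled on all 4 days, and deviations of same-numbered samples had correlations between days of 0.43 to 0.87 (PNPase) and 0.63 to 0.89 (SUV3) over 354 genes above the negative controls. P-values of levels between the knockdowns measure the spread between 2 replicates per knockdown. Those of slopes and of the difference of slopes measure the scatter over days around a slope shared by the replicates of a knockdown. No source used here says what the replicate numbers mean, so hairpin constructs may differ between them.

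The members, the gene lists and the tests were chosen with earlier results of these data known. Named genes were the 5 members, the 3 genes most like each, all receptor and signalling genes above the negative controls and up to 4 genes of the other lists, called genes first; 1 of the genes so chosen is not reported here. Fits were tested on simulated data with larger differences between the knockdowns than those of the members and less scatter within replicates. That run does not show how often differences of the size seen here would be found. Alternatives were other scalings, a pseudocount of 8, subtraction of the negative controls, a filter on low values, each replicate or day left out, and other replicate blocks. Promoter sequences are from RefSeq (GRCh38.p14). The files name no genome build.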

Additional observations from a re-analysis of the deposited data

Results flagged for a closer look

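TNF had a positive slope on day in both PNPase replicates, 0.021 for 545 and 0.051 for 1717. It had a negative one in both SUV3 replicates, -0.081 for 1595 and -0.068 for 1727, all per day on the scaled log2 scale. The PNPase replicates and the SUV3 replicates thus lay on opposite sides of 0. The limma test of the difference of slopes did not pass, at 0.11 ± 0.21 (SE) with an adjusted p of 0.994. Such a split by sign was seen in 7.41% of all genes. The fitted slopes after PNPase and SUV3 knockdown were 0.29 and 0.078 without scaling, 0.32 and 0.054 when scaled by the positive controls, and -0.49 and -0.24 without day 3, so the split was absent from the fitted slopes under these. TNF peaked on day 4 in 3 of the 4 replicates.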

How the results depend on the processing

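Between the knockdowns the difference kept its sign under all 16 alternatives for MIF (0.36 to 0.71, 0.40 with no replicate block) and IL32 (0.21 to 0.59). For MIF the adjusted p was 0.011 with no replicate block, which takes the 16 samples as independent, and 0.172 with a random replicate block; under the others it stayed above the threshold. The number of genes called between the knockdowns was 58 with no replicate block and 4 with a random replicate block, in place of 0. IL16 turned from -0.10 to 0.20 and TNF from -0.20 to 0.11 without scaling. Leaving out 1 replicate at a time gave -0.35 to 0.14 for IL16, positive without PNPase 1717, and -0.49 to 0.10 for TNF, positive without SUV3 1727, with 0 genes called each time. On day 3 alone it gave 0 to 2 genes.

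The slopes per day moved as follows. Without scaling they were -0.071 (IL32), 0.33 (IL16), 0.17 (MIF) and 0.29 (TNF) after PNPase and -0.23 (IL32), 0.27 (IL16), 0.088 (MIF) and 0.078 (TNF) after SUV3 knockdown. Scaled by the positive controls they were -0.036 (IL32), 0.36 (IL16), 0.20 (MIF) and 0.32 (TNF) after PNPase and 0.25 (IL16), 0.064 (MIF) and 0.054 (TNF) after SUV3 knockdown. Scaled by the total over all genes they were 0.17 (IL16), 0.015 (MIF) and 0.14 (TNF) after PNPase and 0.19 (IL16), 0.0024 (MIF) and -0.0077 (TNF) after SUV3 knockdown. Without day 3 they were -0.21 (IL16), 0.061 (MIF) and -0.49 (TNF) after PNPase and -0.13 (IL16), 0.014 (MIF) and -0.24 (TNF) after SUV3 knockdown. Without day 4 they were 0.14 (IL16) and 0.15 (TNF) after PNPase and -0.038 (TNF) after SUV3 knockdown. Without day 6 they were -0.46 (IL32), 0.18 (IL16), -0.17 (MIF) and 0.33 (TNF) after PNPase and 0.0082 (TNF) after SUV3 knockdown. IL32 had a negative slope under every alternative run. Leaving out a replicate gave IL32 -0.40 to -0.25 after PNPase and -0.47 to -0.29 after SUV3 knockdown, and IL16 -0.08 to 0.32 after SUV3 knockdown.

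The difference of slopes never passed for a member. It turned for IL16 to 0.055 without scaling and 0.11 with the positive controls, for MIF to 0.080 without scaling, 0.14 with the positive controls, 0.013 with the total and 0.047 without day 3, for IL32 to -0.023 without day 6 and for TNF to -0.25 without day 3. Leaving out a replicate gave -0.24 to 0.16 (IL16), -0.039 to 0.15 (IL32) and -0.079 to 0.038 (MIF).

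The genes called for a difference of slopes numbered 1 without scaling, with the positive controls, with the negative controls subtracted, with the filter and without day 3, and 0 to 1 without a replicate, in place of 0. After PNPase knockdown 1 gene was called. It was 120 without scaling, 156 with the positive controls, 89 with the negative controls subtracted, 13 with the filter, 17 without day 4, 0 without day 3, 5 or 6 and 0 to 10 without a replicate. After SUV3 knockdown 10 were called. It was 0 without scaling, 0 with the positive controls, 4 with the total, 6 with the negative controls subtracted, 21 with the filter, 0 without day 3, 5 or 6, 0 with no replicate block and 0 to 2 without a replicate. The cause of these moves was not tested. The low values of IL15 and IL16 limit what depth allows for them.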
